A study of Mus musculus with 8 samples.

Results

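The genes described here encode the proteins of the cytosolic ribosome in mouse. They are the entries of the deposited expression table named Rpl or Rps with a number, together with Rplp0, Rplp1, Rplp2 and Rpsa, without the entries whose names mark them as pseudogenes. The rule found 89 of 45583 entries, 52 of the large subunit and 37 of the small subunit. Of these, 77 are the standard proteins, 46 large and 31 small, and 12 are copies of a standard gene that lie elsewhere in the genome. A filter on low counts kept 83 of the 89 for testing, including all 77 standard genes and 6 copies. The 6 that were not tested are the copies Rpl10l, Rpl39l, Rpl3l, Rps12l1, Rps12l2 and Rps4l. The rule uses names alone, and no measured value chose these genes.

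RNA was sequenced from B16F10, a pigmented mouse melanoma cell line that forms tumours in C57BL/6 mice. The 4 groups held 2 libraries each. They were shDRG2 cells, which carried a hairpin against Drg2, given IFN-γ at 5 ng/ml for 24 hours; shDRG2 cells without IFN-γ; pLKO cells, which carried the empty hairpin vector, given the same IFN-γ; and pLKO cells without IFN-γ. Each line was made once as far as the labels say, with an empty vector and not another hairpin as its control, so a difference between the lines cannot be told apart from a difference between the 2 cell populations. The labels do not say that the 2 libraries of a group were separate cultures, so p-values measure the spread between these libraries, which may be technical.

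A cytosolic ribosome joins a small subunit, which reads the mRNA, to a large subunit, which links amino acids into protein. Each ribosomal protein is needed at 1 copy per ribosome, apart from the acidic stalk proteins Rplp1 and Rplp2, which sit in pairs on Rplp0. Most of their mRNAs begin with a C followed by a run of pyrimidines, the terminal oligopyrimidine (TOP) motif, through which mTORC1 and the RNA-binding protein LARP1 set how well they are translated. The rate of ribosome output in a cell is therefore set in large part by translation of these mRNAs and by rRNA synthesis, which counts of polyadenylated or total RNA do not show. IFN-γ acts on promoters that hold a gamma-activated site (GAS), and in human monocytes it also leads RPL13A to leave the ribosome and join the GAIT complex, which silences some inflammatory mRNAs. DRG2 belongs to a small family of GTPases, and its budding yeast counterpart Rbg2 associates with translating ribosomes.

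The TOP motif lies at the start of the mRNA, and not every annotated start below has one. The sequences are of the called genes found in the promoter table and of 2 others with a run at the start. Each is 30 bases on the gene's own strand, 15 before the annotated start and 15 from it on, with the longest run of pyrimidines that begins with C in capitals where it has at least 5 bases (RefSeq, GRCm38.p6).
Rpl15, chr14:18270972-18271001, minus strand: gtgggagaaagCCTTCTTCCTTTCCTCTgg
Rps24, chr14:24490663-24490692, plus strand: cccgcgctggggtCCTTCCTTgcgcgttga
Rpl14, chr9:120571502-120571531, plus strand: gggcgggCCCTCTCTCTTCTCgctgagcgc
Rpl22l1, chr3:28805493-28805522, plus strand: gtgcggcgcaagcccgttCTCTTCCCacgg
Rpl37a, chr1:72711245-72711274, plus strand: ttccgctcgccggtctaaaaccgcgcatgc
Rps19, first annotated start, chr7:24884577-24884606, plus strand: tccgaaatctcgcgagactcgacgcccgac
Rps19, middle annotated start, chr7:24884661-24884690, plus strand: ccgcacggtgagtgagggctctgggtcgcg
Rps19, last annotated start, chr7:24884898-24884927, plus strand: gagggagcggggtgtggagggCTCTCCCac
Rps6, chr4:86857353-86857382, minus strand: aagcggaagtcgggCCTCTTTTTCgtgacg
Rplp2, chr7:141447636-141447665, plus strand: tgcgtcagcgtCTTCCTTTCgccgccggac

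In Rpl15, Rpl14, Rps6 and Rplp2 the annotated start falls on a C of such a run, and the listed start of Rps24 on a T of it. Another annotated start of Rps24, with the window chr14:24490738-24490767, has no such run in it. In Rpl22l1 the run begins just after the start, and Rpl37a has none in this window. Of the 3 annotated starts of Rps19, none falls on such a run, and only the last has one, after the start. The promoter table held 64 of the 89 genes. A C at the annotated start followed by at least 4 pyrimidines was found in 13 of the 64, or 20.3%, against 3.01% of the 27025 genes in the table. Such a run within 15 bases of the start was found in 65.6% of them, against 40.3% of all genes. Annotated starts can be some bases off the start a cell uses, and no start was measured here.

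In the window from 250 bases before to 50 bases after the start, searched on both strands, the ETS motif CCGGAAG was found in 40.6% of the ribosomal protein genes, against 9.93% of all genes. The YY1 motif AAGATGGC was found in 9.38%, against 3.19%. The interferon-stimulated response element (ISRE) was found in 7 of the 64, or 10.9%, against 3.99%, and the 7 were Rpl27a, Rpl38, Rpl4, Rpl5, Rps19, Rps23 and Rps7. The GAS motif, TTCNNNGAA, was found in Rpl35, Rpl36al, Rpl4 and Rplp0, or 6.25%, against 9.55%. The TATA motif TATAAA was found in 10.9%, against 15.7%. In Rpl22l1 it matched on both strands within 1 stretch, TTTATATAAA. The 2 matches overlap and begin at positions -32 and -28 from the start. The motifs were searched separately, and a match is a match of letters.

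The deposited values are estimated counts per gene, with library totals between 25422758 and 36654519. Drg2 measured 6.46 and 7.66 CPM (the count scaled to a fixed, TMM-adjusted library size) in shDRG2 cells with IFN-γ, against 72.3 and 64.3 CPM in pLKO cells with IFN-γ. Without IFN-γ it measured 8.68 and 9.34 CPM in shDRG2 cells, against 76.3 and 68.6 CPM in pLKO cells, so the libraries of the lines did not overlap. The log2 fold change was -3.27 with IFN-γ (adjusted p = 7.8e-07) and -3.01 without (adjusted p = 1.53e-06). Of the melanocytic markers, Tyr was the lowest among Pmel, Tyrp1, Dct and Tyr, at 105 CPM or more in every library. Cd3e, Cdh5, Epcam and Krt18, markers of T, endothelial and epithelial cells, were at 0 in all 8 libraries, and Ptprc, Dcn and Krt8 were at 0 in all but 1. The fibroblast marker Col1a2 ran from 3.26 to 18.9 CPM, with Col1a1 at 0.469 CPM or less, Pecam1 at 0.594 or less and Cd68 at 1.08 or less.

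The 77 standard genes were among the most abundant mRNAs of these cells. Divided by the length of the longest principal transcript, their levels ran from 61.6 to 1579 CPM per kilobase over all libraries, with a median of 516 and quartiles of 361 and 685. The median of all tested genes with a length was 8.89 CPM per kilobase, and all 77 stood within the top 10% of 12802 ranked genes. With the shortest principal transcript in place of the longest, a choice made after seeing the data, the median was 593 CPM per kilobase, the range was 112 to 2397, and again all 77 stood in the top 10%. Large-subunit and small-subunit genes had medians of 505 and 529 CPM per kilobase with the longest transcript.

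**Figure D1:**
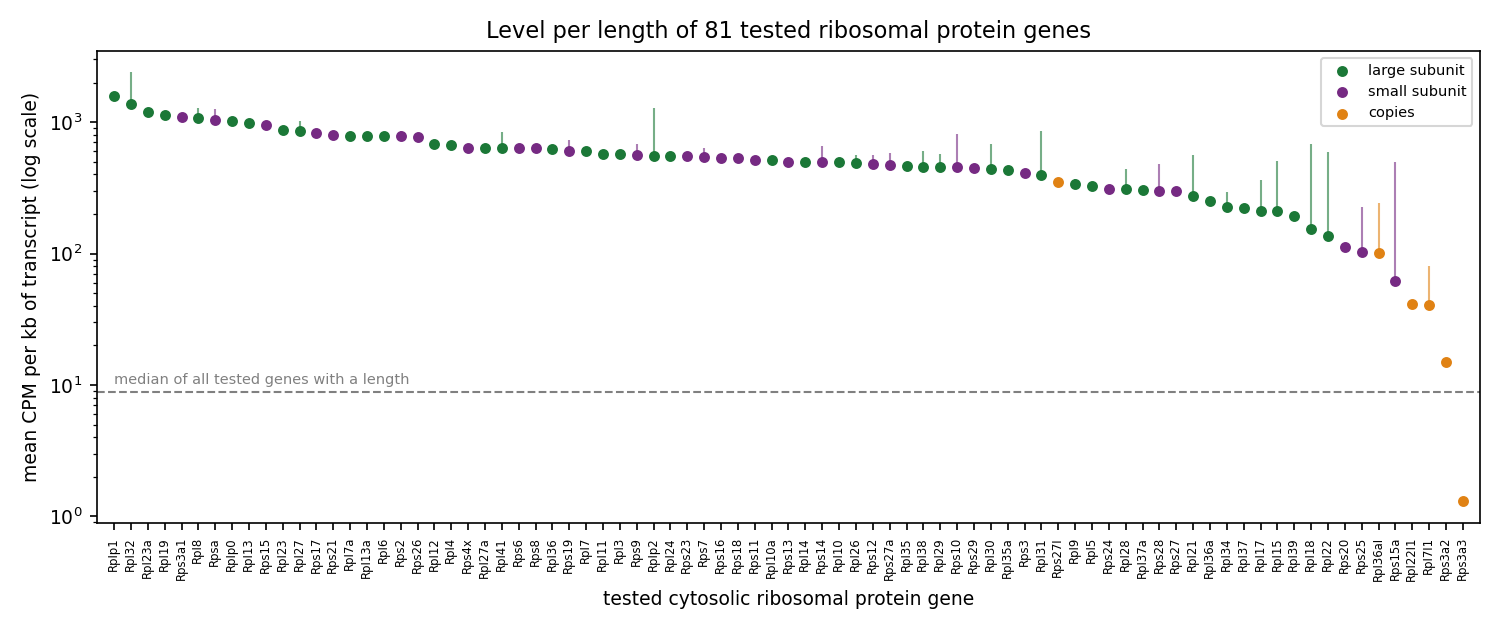
Level of 81 tested ribosomal protein genes in CPM per kilobase on a log axis, as the mean of all 8 libraries, with dots for the longest principal transcript and lines reaching the value with the shortest. The dashed line is the median of all tested genes with a length, 8.89. The standard genes lie far above it, and of the copies only Rps3a3, at 1.3, lies below it.

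Rplp1 of the stalk was the highest at 1579 CPM per kilobase with the longest principal transcripts. Rpl32 (1368), Rpl23a (1199), Rpl19 (1126) and Rps3a1 (1096) followed, all but Rps3a1 of the large subunit. With the shortest ones Rpl32 (2397) came first, followed by Rplp1 (1579), Rpl8 (1284), Rplp2 (1275) and Rpsa (1260). With the longest transcripts the lowest tested were Rps15a (61.6) and the copies Rpl22l1 (41.0), Rpl7l1 (40.3), Rps3a2 (14.9) and Rps3a3 (1.3). The place of Rps15a rested on a principal transcript of 5179 bases, since with the shortest one it stood at 499 CPM per kilobase. Rps20 was then the lowest standard gene at 112, as its principal transcript of 3706 bases is the same under either choice. In counts not divided by length, Rpsa, the laminin receptor protein of the small subunit, was the highest at a mean of 2014 CPM.

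The level of each standard gene varied little over the 4 groups. Between the lowest and the highest of the 8 libraries, a standard gene spanned 1.18-fold in the median. The narrowest was Rps23, a protein of the decoding centre, at 498 to 533 CPM or 1.07-fold, and the widest was Rpl15 at 1.43-fold. All 77 spanned less than 1.5-fold, against 50.3% of the 13500 tested genes and 73.2% of the 2383 that averaged 100 CPM or more. Of the copies, Rpl22l1 spanned 1.72-fold and Rps3a3 2.52-fold. The biological coefficient of variation, the spread between replicates beyond counting, had a median of 6.41% for these genes, 6.60% for tested genes that averaged 100 CPM or more and 8.19% for all tested genes.

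As a share of the counts of named genes, the 89 genes took 3.86% and 3.92% in shDRG2 cells with IFN-γ, against 4.16% and 4.17% in shDRG2 cells without. They took 4.09% and 3.94% in pLKO cells with IFN-γ, against 4.26% and 4.11% in pLKO cells without. All 4 libraries with IFN-γ lay below all 4 without, while shDRG2 and pLKO libraries overlapped without IFN-γ, and with it both shDRG2 libraries lay just below both pLKO libraries. The group means were 3.89 ± 0.0491%, 4.17 ± 0.0119%, 4.02 ± 0.102% and 4.18 ± 0.107% in the same order (SD, n = 2 each). Fewer transcripts of these genes and more RNA of other genes cannot be told apart in such a share.

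Another abundant class moved with it. Mitochondrially encoded transcripts took 3.86% and 3.79% of counts in shDRG2 cells with IFN-γ, against 5.20% and 4.97% without, and 4.01% and 4.42% in pLKO cells with IFN-γ, against 5.29% and 4.44% without. The 4 libraries with IFN-γ lay below the 4 without here too. On TMM-adjusted library sizes the CPM of the 89 genes summed to 39655 and 39270 in shDRG2 cells with IFN-γ, against 42013 and 41040 without. The sums were 41721 and 39337 in pLKO cells with IFN-γ, against 42654 and 39492 without, and there the groups overlapped. The part of mitochondrial RNA in the share was not tested beyond leaving it out of the total, which gave 4.04%, 4.39%, 4.19% and 4.40% for the 4 groups in the order above.

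**Figure D2:**
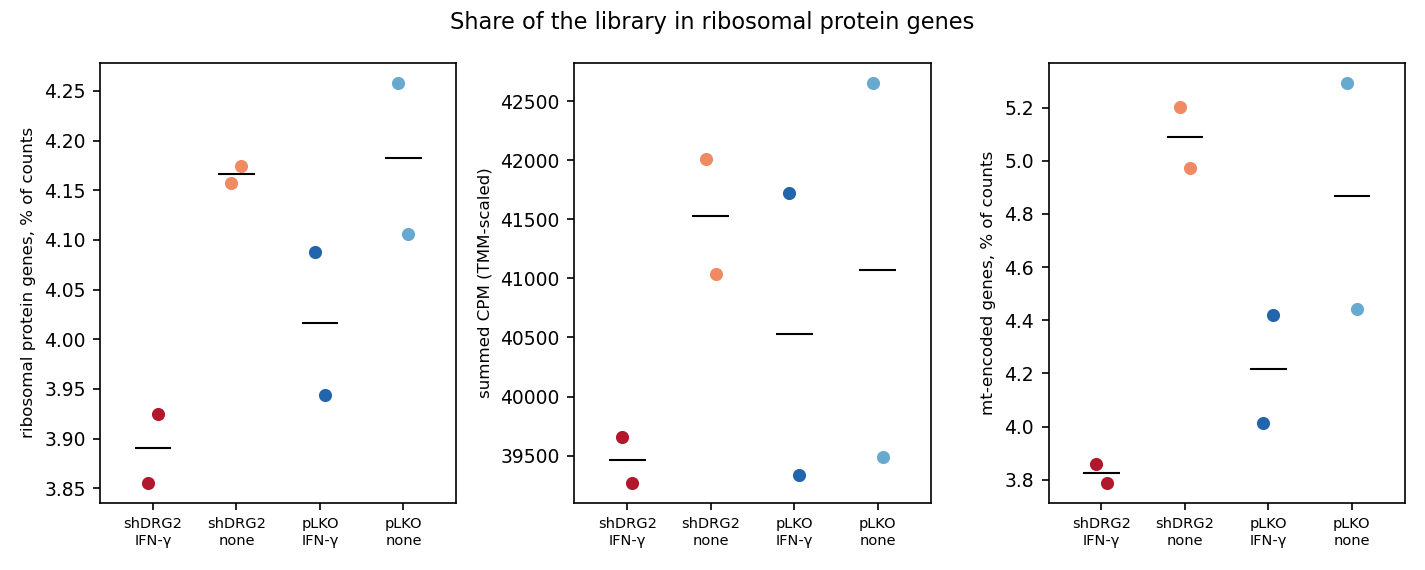
Percent of named-gene counts in the 89 ribosomal protein genes (left), their summed TMM-adjusted CPM (middle) and percent of counts in mitochondrially encoded genes (right), with a point for each library and a black line at the mean of 2. The vertical axes do not start at 0. In the left and right panels the 4 libraries with IFN-γ lie below the 4 without, and in the middle panel the pLKO groups overlap.

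Knockdown of Drg2 went with little change in these genes. A gene is called where the edgeR quasi-likelihood F test gave a Benjamini-Hochberg adjusted p under 0.05 over the 13500 tested genes. Without IFN-γ, 0 of 83 were called in shDRG2 against pLKO cells, where 1.20% of all genes were called, 0.467% higher and 0.733% lower. At an unadjusted p under 0.05 there were 3, Rps24, Rpl15 and Rpl35a, against 1723 of all 13500 tested genes. DESeq2 called 1, Rps24. The median log2 fold change of the 83 was 0.02, against 0.01 for all tested genes, with 55 positive and 28 negative. Without pLKO replicate 2 the median was -0.03 with 57 negative, and with library size alone 42 were negative, so this lean has no firm direction. The 95% interval of the fold change lay within 0.5 log2 units of 0 for 80 of the 83. It did so for 2202 of the 2383 genes that averaged 100 CPM or more and 8440 of all 13500.

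With IFN-γ, 1 of 83 was called, where 1.67% of all genes were called, 0.504% higher and 1.17% lower. It was Rps24, which was lower in shDRG2 cells. Intervals within 0.5 log2 units of 0 were found for 79 of the 83 and for 2254 of the 2383 genes that averaged 100 CPM or more. The median of the 83 was -0.04, against 0.00 for all tested genes, with 27 positive and 56 negative. Without pLKO replicate 1 with IFN-γ the median was -0.01 with 42 negative, and without pLKO replicate 2 with IFN-γ it was -0.07 with 71 negative. Averaged over both treatments, Rps24 and Rpl15 were called, both lower, where 5.91% of all genes were called, 1.98% higher and 3.93% lower. On that average the intervals of 82 of the 83, and of 2314 of the same 2383 genes, lay within 0.5 log2 units of 0. The median was -0.00 for the 83, against 0.01 for all tested genes. This median ran from -0.03 without pLKO replicate 2 to 0.01 without pLKO replicate 1.

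Rps24 (ENSMUSG00000025290.17, chr14:24487125-24496959, plus strand, mm10) encodes a small-subunit protein needed for processing of the 18S rRNA precursor, and its human gene is mutated in some patients with Diamond-Blackfan anaemia. It measured 433 and 458 CPM in shDRG2 cells with IFN-γ, against 572 and 571 CPM in pLKO cells with IFN-γ. Without IFN-γ it measured 417 and 445 CPM in shDRG2 cells, against 551 and 537 CPM in pLKO cells. All 4 shDRG2 libraries lay below all 4 pLKO libraries. Its log2 fold change was -0.36 with IFN-γ (SE 0.0745, adjusted p = 0.0434), a change of -22.1%, and -0.34 without (SE 0.0745, adjusted p = 0.0635), a change of -20.8%. Averaged over both treatments it was -0.35 (SE 0.0527, 95% interval -0.47 to -0.23, adjusted p = 0.00456). The averaged call held without any 1 of the 8 libraries (adjusted p 0.0118 to 0.0312), while the call with IFN-γ ended without each of them in turn (adjusted p 0.0574 to 0.364) and with only the groups compared in the fit (0.0811).

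Rpl15 (ENSMUSG00000012405.16, chr14:18267823-18271391, minus strand, mm10) encodes a large-subunit protein that sits deep in the rRNA core. It measured 368 and 380 CPM in shDRG2 cells with IFN-γ, against 480 and 431 CPM in pLKO cells with IFN-γ. Without IFN-γ it measured 376 and 336 CPM in shDRG2 cells, against 462 and 414 CPM in pLKO cells. The 4 shDRG2 libraries again lay below the 4 pLKO libraries. The averaged log2 fold change was -0.29 (SE 0.0649, 95% interval -0.44 to -0.15, adjusted p = 0.0278), and the separate values of -0.28 with IFN-γ (adjusted p = 0.203) and -0.30 without (adjusted p = 0.176) were not called. The averaged call ended when any 1 of 5 libraries was left out, either shDRG2 library with IFN-γ, shDRG2 replicate 2, pLKO replicate 1 with IFN-γ or pLKO replicate 1 (adjusted p 0.0805 to 0.121).

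Both genes lie on chromosome 14, as did 176 of the 531 genes called lower in shDRG2 cells averaged over both treatments. On that average the 436 tested genes of chromosome 14 had a median log2 fold change of -0.27 and quartiles of -0.38 and -0.18, with 90.6% of them negative. Of the 436, 176 were called lower and 5 higher, or 41.5%. The medians of the other chromosomes lay between -0.04 and 0.05. The chromosome 14 median was -0.28 without IFN-γ and -0.27 with it, so it was seen in separate pairs of groups, while for IFN-γ against none averaged over both lines it was 0.02.

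Within that chromosome neither gene stood apart. Of its 436 genes, 138 had a lower averaged value than Rps24 and 189 a lower value than Rpl15. Among the 5 tested genes on each side of Rps24, 10 of 10 were negative with a median of -0.35. The 4 called there were Polr3a (-0.36), a subunit of RNA polymerase III, Zmiz1 (-0.34), Ppif (-0.44), which encodes mitochondrial cyclophilin D, and Zfp503 (-9.13). Beside Rpl15, 9 of 10 were negative with a median of -0.32, and 5 were called. They were Top2b (-0.26), a DNA topoisomerase, the ubiquitin-conjugating enzyme genes Ube2e1 (-0.36) and Ube2e2 (-0.27), Rarb (-0.87) and Gng2 (-1.49).

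When libraries were scaled on the genes of chromosome 14 alone, the averaged log2 fold change was -0.07 for Rps24 and -0.01 for Rpl15. This alternative was added after seeing the data. It moves every gene by about the shift of that chromosome, so these values restate the distance from its median and are no separate test. By the edgeR test 0 of the 80 tested ribosomal protein genes on other chromosomes were called in the 3 comparisons of the lines. Of all genes 1.20% were called without IFN-γ, 1.67% with it and 5.91% averaged. An unadjusted p under 0.05 was found for 1, 6 and 5 of them without IFN-γ, with it and averaged. Over all 13500 tested genes it was found for 1723, 1616 and 2633. Besides Rps24 and Rpl15, the tested ribosomal protein gene on chromosome 14 is Rps3a2 (chr14:88123017-88123808, minus strand), which GENCODE lists as a processed pseudogene. It measured 12.3 and 12.6 CPM in shDRG2 cells with IFN-γ, against 11.7 and 9.6 CPM in pLKO cells with IFN-γ, and 12.9 and 11.5 CPM in shDRG2 cells without, against 12.2 and 11.5 CPM in pLKO cells without. Its groups overlapped without IFN-γ, and its averaged log2 fold change was 0.13 (adjusted p = 0.478). On the scale of the chromosome 14 genes it was 0.41, moved in the same way. The number of copies of chromosome 14 in the 2 lines was not measured here, and its part in these values was not tested.

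**Figure D3:**
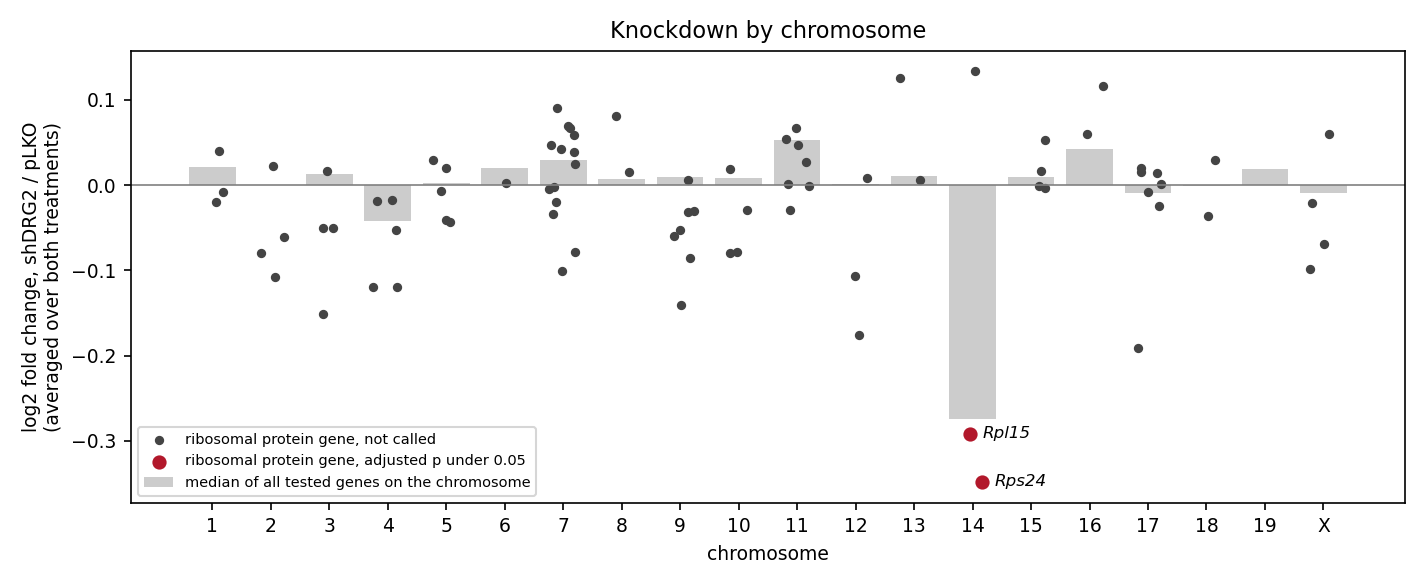
Log2 fold change of shDRG2 against pLKO averaged over both treatments by chromosome, with grey bars at the median of all tested genes and points for the ribosomal protein genes. Chromosome 14 has a median of -0.27 and holds Rps24 and Rpl15, and the medians of the other chromosomes lie between -0.04 and 0.05.

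The count of these genes called with IFN-γ depended on the model and lay below the share of all genes called in each comparison as fitted. In pLKO cells 2 of 83 were called, both higher, where 28.1% of all genes were called, 15.4% higher and 12.7% lower. In shDRG2 cells 4 of 83 were called, all lower, where 31.4% of all genes were called, 16.2% higher and 15.2% lower. Averaged over both lines 3 were called higher and 4 lower, or 8.43% of the 83, where 44.1% of all genes were called, 22.5% higher and 21.6% lower. The averaged count was 20 with the replicate number as a block, 17 with upper-quartile scaling and 19 with library size alone. Over all genes the averaged count moved too, from 5954 as fitted to between 5479 and 7240 over the alternatives that kept all libraries. The averaged share was 49.3% among those that averaged 100 CPM or more and 26.5% among genes whose longest transcript is under 1000 bases. Mitochondrial ribosomal protein genes gave 20 higher and 8 lower of 77, and translation factor genes (Eif and Eef) 17 higher and 11 lower of 62.

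The averaged fold changes were small and mostly negative. Their median was -0.05, against 0.00 for all tested genes and -0.04 for those that averaged 100 CPM or more. Of the 83, 24 were positive and 59 negative, and 81 had a 95% interval within 0.5 log2 units of 0. Of the 2383 genes that averaged 100 CPM or more, 1802 had such an interval. Small-subunit genes had 7 positive and 24 negative with a median of -0.07, and large-subunit genes had 16 positive and 30 negative with a median of -0.04. In shDRG2 cells the median was -0.09, with 23 positive and 60 negative, and in pLKO cells it was -0.01, with 35 positive and 48 negative. In pLKO cells the sign turned without pLKO replicate 1, at 0.02 with 28 negative, or without pLKO replicate 2 with IFN-γ, at 0.01 with 36 negative. In shDRG2 cells the median was -0.06 without shDRG2 replicate 2, and the averaged one was -0.03 without pLKO replicate 1. With upper-quartile scaling or library size alone the averaged median was -0.09, where all tested genes moved to -0.04 and -0.03.

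**Figure D4:**
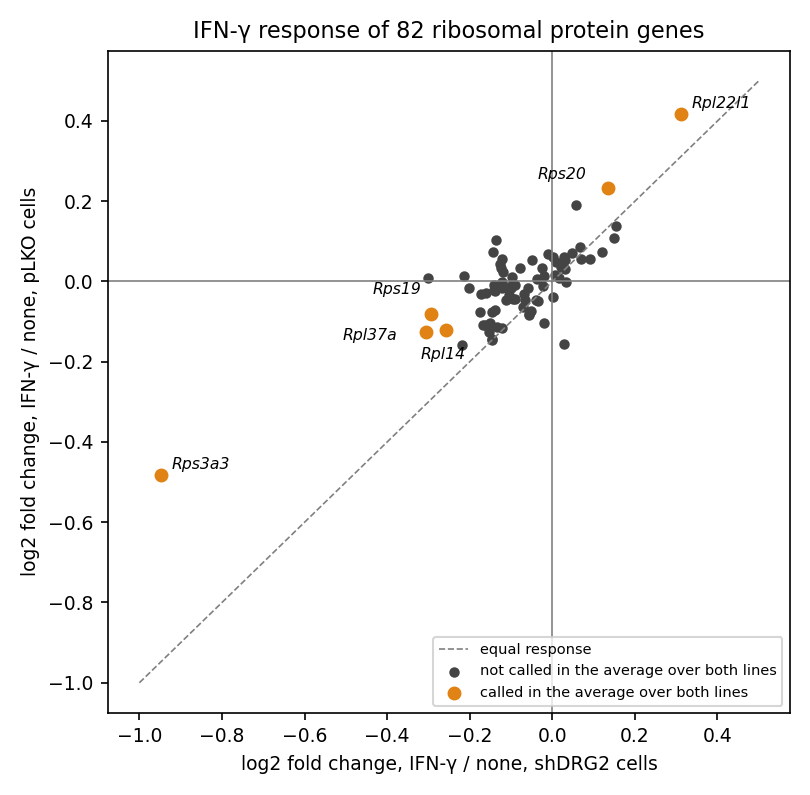
Log2 fold change of IFN-γ against none in shDRG2 cells (horizontal) and in pLKO cells (vertical) for 82 tested ribosomal protein genes. Most points lie near 0 on both axes. Rpl22l1 lies at 0.31 and 0.42, Rps20 at 0.14 and 0.23, and Rps3a3 at -0.95 and -0.48.

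Rpl22l1 (ENSMUSG00000039221.10, chr3:28805436-28807424, plus strand) rose with IFN-γ. It is a copy of Rpl22 that is known to bind RNA and to affect splicing, and Rpl22 represses it in mouse cells. It measured 24.7 and 22.6 CPM in shDRG2 cells with IFN-γ, against 16.7 and 21.6 CPM without, and 25.7 and 28.7 CPM in pLKO cells with IFN-γ, against 19.8 and 21.0 CPM without. All 4 libraries with IFN-γ lay above all 4 without. The log2 fold change was 0.42 in pLKO cells (SE 0.126, adjusted p = 0.0317), 0.31 in shDRG2 cells (SE 0.127, adjusted p = 0.0892) and 0.36 averaged (SE 0.0894, 95% interval 0.17 to 0.56, adjusted p = 0.00737). The averaged call held without any 1 library (adjusted p 0.00156 to 0.0309). The call in pLKO cells ended without replicate 2 of pLKO with IFN-γ or either replicate of pLKO (adjusted p 0.0772 to 0.171), and with upper-quartile scaling (0.0557) or library size alone (0.0678).

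Rpl22 itself, which binds several viral and cellular RNAs, measured 261 and 264 CPM in shDRG2 cells with IFN-γ, against 258 and 321 CPM without, and 269 and 318 CPM in pLKO cells with IFN-γ, against 266 and 292 CPM without, with the groups overlapping in both lines. Per length, Rpl22l1 stood at 35.2% and 31.9% of Rpl22 in shDRG2 cells with IFN-γ, against 24.0% and 24.9% without. In pLKO cells it stood at 35.6% and 33.6% with IFN-γ, against 27.7% and 26.8% without. The 4 ratios with IFN-γ lay above the 4 without. With the shortest principal transcripts the ratios ran from 5.54% to 8.22%, so the level of the ratio depends on the Rpl22 transcript and only its order across libraries can be read.

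Rps20 (ENSMUSG00000028234.6, chr4:3831334-3835665, minus strand), a protein of the small-subunit head, rose as well. It measured 416 CPM in both shDRG2 libraries with IFN-γ, against 377 and 381 CPM without, and 469 and 467 CPM in pLKO cells with IFN-γ, against 409 and 387 CPM without. The groups did not overlap in either line. It changed by 0.23 on the log2 scale in pLKO cells (SE 0.0706, adjusted p = 0.0315), 0.14 in shDRG2 cells (adjusted p = 0.181) and 0.18 averaged (SE 0.0499, adjusted p = 0.0123). The averaged call held without any 1 library (adjusted p 0.0204 to 0.0428). The call in pLKO cells ended without any 1 pLKO library of either treatment or replicate 1 of shDRG2 with IFN-γ (adjusted p 0.0567 to 0.155), and with upper-quartile scaling (0.0538) or only the groups compared in the fit (0.069).

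The 4 genes called lower averaged over both lines, Rpl37a, Rpl14, Rps19 and Rps3a3, were also the 4 called in shDRG2 cells. Rpl37a (ENSMUSG00000046330.10, chr1:72711290-72713813, plus strand) encodes a zinc-binding protein of the large subunit. It measured 159 and 142 CPM in shDRG2 cells with IFN-γ, against 175 and 197 CPM without, and 163 and 162 CPM in pLKO cells with IFN-γ, against 173 and 181 CPM without. The groups did not overlap in either line. For Rpl37a the log2 fold change was -0.31 in shDRG2 cells (SE 0.0857, adjusted p = 0.0208), -0.13 in pLKO cells (adjusted p = 0.324) and -0.22 averaged (SE 0.0605, adjusted p = 0.015). The call in shDRG2 cells ended without replicate 2 of shDRG2 with IFN-γ (adjusted p = 0.169) or of shDRG2 (0.155), and the averaged call without either of these or replicate 2 of pLKO (0.0581 to 0.0782).

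Rps19 (ENSMUSG00000040952.16, chr7:24884371-24889806, plus strand) encodes the small-subunit protein most often mutated in Diamond-Blackfan anaemia. It measured 405 and 401 CPM in shDRG2 cells with IFN-γ, against 449 and 540 CPM without, and 452 and 478 CPM in pLKO cells with IFN-γ, against 487 and 498 CPM without. The groups did not overlap, and shDRG2 replicate 2 without IFN-γ stood highest. For Rps19 the log2 fold change was -0.29 in shDRG2 cells (SE 0.093, adjusted p = 0.0346), -0.08 in pLKO cells (adjusted p = 0.565) and -0.19 averaged (SE 0.0657, adjusted p = 0.0394). Without shDRG2 replicate 2 the value in shDRG2 cells was -0.15 (adjusted p = 0.288) and the averaged value -0.11 (adjusted p = 0.173). The call in shDRG2 cells also ended without either replicate of shDRG2 with IFN-γ or of pLKO (adjusted p 0.0538 to 0.147), and the averaged call without any 1 library other than replicate 1 of shDRG2.

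Rpl14 (ENSMUSG00000025794.9, chr9:120571444-120574654, plus strand), a large-subunit protein, measured 456 and 433 CPM in shDRG2 cells with IFN-γ, against 498 and 564 CPM without, and 494 and 495 CPM in pLKO cells with IFN-γ, against 560 and 515 CPM without. The groups did not overlap in either line. On the log2 scale the fold change was -0.26 in shDRG2 cells (SE 0.0856, adjusted p = 0.0427), -0.12 in pLKO cells (adjusted p = 0.343) and -0.19 averaged (SE 0.0605, adjusted p = 0.0273). Without shDRG2 replicate 2 these called values were -0.16 (adjusted p = 0.281) and -0.13 (adjusted p = 0.119). The call in shDRG2 cells ended without any 1 library other than replicate 1 of shDRG2, and the averaged call without any 1 other than that library or replicate 2 of pLKO.

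Rps3a3 (ENSMUSG00000059751.7, chr13:108670603-108671397, plus strand) is an Rps3a1 copy that GENCODE lists as a processed pseudogene, at or below 1.48 CPM. It measured 0.589 and 0.901 CPM in shDRG2 cells with IFN-γ, against 1.46 and 1.48 CPM without, and 0.767 and 0.850 CPM in pLKO cells with IFN-γ, against 1.21 and 1.06 CPM without. The groups did not overlap in either line. The log2 fold change was -0.95 in shDRG2 cells (SE 0.309, adjusted p = 0.0395), -0.48 in pLKO cells (adjusted p = 0.297) and -0.72 averaged (SE 0.22, adjusted p = 0.0229). DESeq2 called neither the value in shDRG2 cells (adjusted p = 0.149) nor the averaged one (0.0907). Leaving out 1 library ended the call in shDRG2 cells for every library other than replicate 2 of shDRG2 with IFN-γ, and the averaged call for every library other than that one and replicate 2 of pLKO (adjusted p 0.0548 to 0.232). Its counts are fractions shared with near-identical copies, so this value is uncertain.

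**Figure D5:**
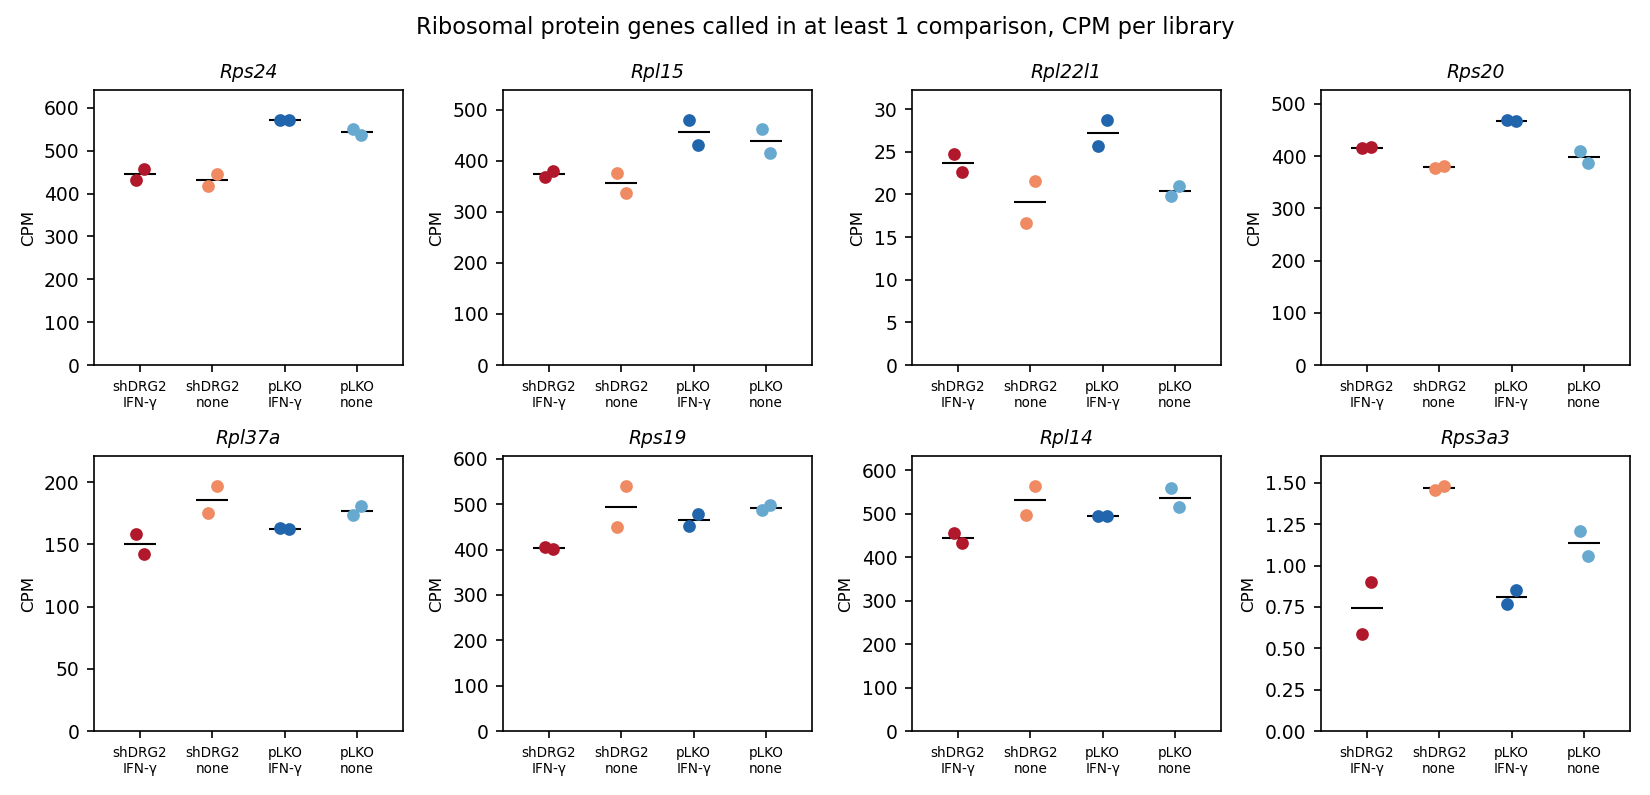
CPM in each of the 8 libraries for 8 ribosomal protein genes called in at least 1 comparison, with axes that start at 0. Rps24 and Rpl15 are lower in the 4 shDRG2 libraries. Rpl22l1 and Rps20 are higher with IFN-γ in each line, and Rpl37a, Rps19, Rpl14 and Rps3a3 are lower.

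The response to IFN-γ was compared between the lines for each gene. By the edgeR test 0 of 83 were called, with 0 at an unadjusted p under 0.05 and 0 by DESeq2. Of all 13500 tested genes 0.00741% were called and 321 had an unadjusted p under 0.05. The values, shDRG2 minus pLKO on the log2 scale, were negative for 68 of the 83, with a median of -0.06 against -0.01 for all tested genes. This lean rested on single pLKO libraries, since without pLKO replicate 2 the median was 0.00 with 41 negative, and without pLKO replicate 1 with IFN-γ it was -0.01 with 44 negative. The lowest was Rps3a3 (-0.47), followed by Rps21 (-0.31, 95% interval -0.71 to 0.09), a small-subunit protein, and the highest was Rps3a2 (0.19, 95% interval -0.22 to 0.59). Intervals within 0.5 log2 units of 0 were found for 76 of the 83 and for 2095 of the 2383 genes that averaged 100 CPM or more. The genes called in shDRG2 cells are therefore not shown to respond differently in pLKO cells.

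Across the 83 genes the 2 IFN-γ responses, which share no library, had a Pearson correlation of 0.79, or 0.64 without Rpl22l1 and Rps3a3, and 65 had the same sign. The knockdown differences without and with IFN-γ had a correlation of 0.52, or 0.36 without Rps24 and Rpl15, and 47 had the same sign. These are descriptions over genes that share libraries and scaling within each comparison.

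The stalk proteins, which recruit the GTPases of translation, showed no call. Rplp0 measured 1372 and 1264 CPM in shDRG2 cells with IFN-γ, against 1562 and 1339 CPM without, and 1417 and 1244 CPM in pLKO cells with IFN-γ, against 1493 and 1301 CPM without. Rplp1 ran from 717 to 829 CPM and Rplp2 from 480 to 570 CPM over the 8 libraries. The Rplp0 libraries with and without IFN-γ overlapped in both lines.

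Rpsa, which joins the small subunit late in its assembly, measured 1893 and 1841 CPM in shDRG2 cells with IFN-γ, against 2342 and 2002 CPM without, and 2003 and 1793 CPM in pLKO cells with IFN-γ, against 2243 and 1996 CPM without. The groups did not overlap in shDRG2 cells and overlapped in pLKO cells. The averaged log2 fold change was -0.19 (adjusted p = 0.0589) and was not called. Rpl41, which encodes the smallest ribosomal protein, measured 349 and 329 CPM in shDRG2 cells with IFN-γ, against 379 and 380 CPM without, and 370 and 360 CPM in pLKO cells with IFN-γ, against 404 and 382 CPM without. Its groups did not overlap, at an averaged value of -0.14 (adjusted p = 0.0556).

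Rpl5 and Rpl11, which with 5S rRNA bind and inhibit Mdm2 when ribosome assembly fails, were not called in any of the 7 comparisons. Rpl5 measured 649 and 685 CPM in shDRG2 cells with IFN-γ, against 700 and 666 CPM without, and 655 and 646 CPM in pLKO cells with IFN-γ, against 698 and 647 CPM without. Rpl11 measured 437 and 468 CPM in shDRG2 cells with IFN-γ, against 495 and 502 CPM without, and 490 and 464 CPM in pLKO cells with IFN-γ, against 501 and 468 CPM without. The groups overlapped for Rpl5 in both lines and for Rpl11 in pLKO cells, while the 2 shDRG2 libraries with IFN-γ lay below those without for Rpl11.

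Rpl13a, the GAIT component, measured 837 and 825 CPM in shDRG2 cells with IFN-γ, against 852 and 823 CPM without, and 877 and 782 CPM in pLKO cells with IFN-γ, against 823 and 758 CPM without. The groups overlapped in both lines, and the averaged log2 fold change for IFN-γ was 0.03 (95% interval -0.10 to 0.16). Rps6, the substrate of S6 kinase downstream of mTORC1, measured 505 and 547 CPM in shDRG2 cells with IFN-γ, against 598 and 543 CPM in pLKO cells with IFN-γ, and 562 and 520 CPM in shDRG2 cells without, against 618 and 559 CPM in pLKO cells without. The lines overlapped with IFN-γ and without it, and the averaged difference was -0.12 (95% interval -0.26 to 0.02).

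Rpl35a, mutated in some patients with Diamond-Blackfan anaemia, had the highest knockdown value of a standard gene without IFN-γ. It measured 218 and 228 CPM in shDRG2 cells with IFN-γ, against 219 CPM in both pLKO libraries with IFN-γ, and 241 and 245 CPM in shDRG2 cells without, against 214 and 207 CPM in pLKO cells without. The lines overlapped with IFN-γ but not without, where the log2 fold change was 0.20 (adjusted p = 0.227), and Rps3a3 had a higher value of 0.36 (adjusted p = 0.699). With IFN-γ the highest was Rps3a2 at 0.23 (adjusted p = 0.563). Rps28, a small-subunit protein near the mRNA exit channel, measured 115 and 113 CPM in shDRG2 cells with IFN-γ, against 132 and 145 CPM in pLKO cells with IFN-γ, and 120 and 143 CPM in shDRG2 cells without, against 137 and 144 CPM in pLKO cells without. Its lines overlapped without IFN-γ but not with it, at an averaged value of -0.19 (adjusted p = 0.14).

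The other copies were not called. Rps27l, a p53 target in human cells, ran from 163 to 200 CPM, and per length it stood at 107% to 133% of Rps27. Rpl36al measured 113 and 117 CPM in shDRG2 cells with IFN-γ, against 131 and 142 CPM in pLKO cells with IFN-γ, and 116 and 134 CPM in shDRG2 cells without, against 133 and 136 CPM in pLKO cells without. Its lines overlapped without IFN-γ but not with it, at an averaged value of -0.18 (adjusted p = 0.138). Per length it stood at 36.4% to 43.6% of Rpl36a with the longest transcripts and at 88.2% to 106% with the shortest. Rpl7l1 stood at 6.22% to 7.42% of Rpl7, or 12.4% to 14.8% with the shortest transcripts, Rps3a2 at 1.24% to 1.54% of Rps3a1, and Rps3a3 at 0.0737% to 0.164%. The testis-expressed copies Rpl10l and Rpl39l, and Rps4l, were at 0 in all 8 libraries, and the muscle-expressed Rpl3l was at 0 in all but replicate 2 of shDRG2 with IFN-γ, at 0.0274 CPM. Rps12l1 was above 0 only in replicate 1 of shDRG2 with IFN-γ, at 0.0752 CPM, and Rps12l2 only in replicate 1 of shDRG2 and replicate 2 of pLKO, at 0.0313 and 0.0318 CPM.

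Genes that share reads with copies limit these values. Of the nonzero values in the table, 86.4% were whole numbers to within 0.0015, against 10.3% of those of the 89 genes, so most were split between similar sequences before they were deposited. The table names 257 pseudogenes of these families, of which 56 were tested. The genes with whole counts in all libraries included Rps3, Rps21 and Rps27l, and of these none was called.

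Of the ribosomal proteins that the naming rule leaves out, Fau and Rack1 are given here. Fau, which encodes the small-subunit protein eS30 as a fusion, measured 187 and 181 CPM in shDRG2 cells with IFN-γ, against 196 and 200 CPM without, and 199 and 200 CPM in pLKO cells with IFN-γ, against 208 and 203 CPM without. Rack1, listed as Gnb2l1, a scaffold on the small-subunit head, measured 916 and 852 CPM in shDRG2 cells with IFN-γ, against 978 and 901 CPM without, and 885 and 829 CPM in pLKO cells with IFN-γ, against 876 and 827 CPM without. With IFN-γ, Fau lay lower in both lines without overlap, and the Rack1 groups overlapped in both. Neither was called in any comparison.

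The 44 tested genes of ribosome assembly and RNA polymerase I are a list that gives the machinery around these proteins. By the edgeR test they showed 1 knockdown call without IFN-γ and 0 with it, where 1.20% and 1.67% of all genes were called. Of the 44, 9 and 2 had an unadjusted p under 0.05, against 1723 and 1616 of all 13500 tested genes. The call was Gnl3 (-0.51, adjusted p = 0.0209), the nucleolar GTPase nucleostemin, which also lies on chromosome 14. Without IFN-γ 39 of the 44 were negative with a median of -0.12, and with IFN-γ 22 were negative with a median of -0.00. The IFN-γ responses of the list differed by a median of 0.11, shDRG2 minus pLKO, with 40 of 44 positive and 0 called by the edgeR test, 0 of them at an unadjusted p under 0.05. The medians of this list were not recomputed with single libraries left out.

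With IFN-γ the list had 3 genes called higher and 3 lower in pLKO cells, 5 higher and 0 lower in shDRG2 cells, and 8 higher and 7 lower averaged, where 28.1%, 31.4% and 44.1% of all genes were called. Riok2, a kinase of late small-subunit assembly, rose by an averaged 0.47 on the log2 scale (adjusted p = 0.000664). Rpf2, which brings 5S rRNA into the large subunit, rose by 0.33 (adjusted p = 0.0021), and Taf1b, a polymerase I initiation factor, by 0.36 (adjusted p = 0.00303). Nolc1, a nucleolar phosphoprotein, fell by 0.29 (adjusted p = 0.00274).

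By the edgeR test 0 of 22 other mRNAs known to carry a TOP motif were called in the 3 comparisons of the lines. Of all genes 1.20% were called without IFN-γ, 1.67% with it and 5.91% averaged. An unadjusted p under 0.05 was found for 0, 2 and 2 of them without IFN-γ, with it and averaged. Over all 13500 tested genes it was found for 1723, 1616 and 2633. With IFN-γ averaged over the lines 2 rose and 3 fell, where 44.1% of all genes were called, and 17 of 22 were negative with a median of -0.07. Eif3e, a subunit of initiation factor 3, rose by 0.28 (adjusted p = 0.00117) and Btf3, of the nascent chain complex, by 0.15 (adjusted p = 0.0283). Nap1l1, a histone chaperone, fell by 0.31 (adjusted p = 0.00223), Pabpc1, the poly(A) binding protein, by 0.28 (adjusted p = 0.0106) and Hnrnpa1 by 0.24 (adjusted p = 0.00594).

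A list of regulators of mTORC1 and of TOP mRNAs, with 19 tested genes, also holds the transcription factor genes Myc, Max and Mxd4. Its 1 call for the knockdown was Deptor, an mTOR inhibitor, at -0.43 with IFN-γ (adjusted p = 0.0489) and -0.46 without (adjusted p = 0.0452). Of all genes 1.67% were called with IFN-γ and 1.20% without. IFN-γ gave 9 calls in each line, 6 higher and 3 lower, and 11 averaged, 8 higher and 3 lower, where 28.1%, 31.4% and 44.1% of all genes were called in pLKO cells, in shDRG2 cells and averaged. Pdcd4, which binds and inhibits the helicase Eif4a, rose by an averaged 0.85 (adjusted p = 2.51e-05) and Max, the partner of Myc, by 0.70 (adjusted p = 1.27e-06). Eif4ebp2, a repressor of cap-dependent initiation, fell by 0.74 (adjusted p = 5.96e-05). Mxd4, which competes with Myc for Max, rose by 0.81 (adjusted p = 0.000363).

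Of 20 genes of ribosome rescue and collision sensing, 2 rose and 5 fell with IFN-γ averaged over the lines, where 44.1% of all genes were called. Ascc3, the helicase that takes apart collided ribosomes, rose by 1.01 (adjusted p = 1.31e-06) and Gtpbp2, a rescue GTPase, by 0.89 (adjusted p = 3.41e-06). Zak, a kinase that senses collisions, fell by 0.70 (adjusted p = 1.62e-05), and Zfp598, which ubiquitinates small-subunit proteins of collided ribosomes, by 0.27 (adjusted p = 0.00457). Of 12 chaperones and importins of ribosomal proteins, 1 rose and 4 fell with IFN-γ averaged over the lines, a share near the 44.1% of all genes, the fallen ones being Nap1l1, Ipo9 (-0.23), Ipo4 (-0.24) and Ipo5 (-0.19). For the knockdown averaged over both treatments 1 of the 12 was called, where 5.91% of all genes were called. It was Ipo4, which lies on chromosome 14 (-0.43, adjusted p = 0.00896). Of 5 tested genes listed for the GAIT pathway, Rpl13a among them, 2 rose and 1 fell with IFN-γ averaged over the lines. The share of all genes was 44.1%. Eprs, the glutamyl-prolyl-tRNA synthetase, rose by 0.38 (adjusted p = 0.000374) and the kinase gene Dapk3 by 0.25 (adjusted p = 0.0188), while Syncrip fell by 0.24 (adjusted p = 0.00494).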

How the data were processed

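The authors deposited estimated counts (expected counts) per gene, not normalised between libraries. The submitters' processing notes name STAR, Salmon 1.5.2 and mm10, and the annotation, the strandedness and the summary to genes are not known here. The labels' protocols give more than 1 read length and instrument without saying which library had which. Of 45583 entries, 27 with gene names turned into dates were left out. Counts were rounded and fitted in R 4.3.3 with edgeR 4.0.16 over all 8 libraries with 1 coefficient per group and no block, after filterByExpr (13500 genes) and TMM scaling (factors 0.973 to 1.04). There were 4 residual degrees of freedom. Each of 7 comparisons used the two-sided quasi-likelihood F test with Benjamini-Hochberg adjustment over all tested genes at 0.05, and 2 of them average over treatments or lines. Fold changes are log2, SE is their standard error, and positions are from GENCODE M21 (GRCm38, the assembly of mm10). The procedure was tested on simulated data. Named are the ribosomal protein genes called in any comparison (1 called gene is not reported here), the extremes of each comparison, the 5 highest and lowest per length, and genes of known roles. The genes and lists were chosen with earlier results of these data known. Alternatives covered scaling, filters, DESeq2 1.42.0, the groups in the fit, a replicate block, pseudogenes and leaving out each library.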

Additional observations from a re-analysis of the deposited data

How the results depend on the processing

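The direction of each called ribosomal protein gene, and of Drg2, held under every alternative tried for it. The directions of the other named genes were not followed in this way. Over 19 results for the called ribosomal protein genes and 352 recomputed values, 266 kept direction and side of the threshold, 80 lost the call, 6 gained one and 0 reversed. The counts of ribosomal protein genes called moved more, and the cause was not tested. For the knockdown without IFN-γ, 0 became 2 with no filter and 1 with DESeq2. With IFN-γ, 1 became 0 with only the groups compared or without the genes of chromosome 14, and 0 when any 1 library was left out. Averaged, 2 became 0 without those genes, and 1 to 2 leaving out a library. Leaving out chromosome 14 takes away Rps24 and Rpl15 themselves, so the loss of their calls was fixed in advance and tests nothing. For IFN-γ in pLKO cells, 2 became 0 with upper-quartile scaling, 1 with library size only or only the groups compared, and 0 to 2 leaving out a library. In shDRG2 cells, 4 became 7 with upper-quartile scaling or library size only, 1 with only the groups compared, and 1 to 6 leaving out a library. Averaged, 7 became 17 and 19 with those scalings, and 3 to 7 leaving out a library. Without mitochondrially encoded genes the share was 4.04% in shDRG2 with IFN-γ, 4.39% in shDRG2, 4.19% in pLKO with IFN-γ and 4.40% in pLKO, and with pseudogenes added it was 4.21% in shDRG2.

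With the replicate number as a block, 2 were called for the knockdown without IFN-γ, 3 with it and 4 averaged, and 12 for IFN-γ in shDRG2 cells and 20 averaged. The labels do not say that a number marks a shared batch, and 2 numbers cannot show pairing. Deviations of same-numbered libraries correlated at 0.107 to 0.274 over all genes, and for the ribosomal protein genes at 0.774 to 0.837 among 3 groups but -0.125 to 0.123 with shDRG2 with IFN-γ.

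Over all genes, no filter gave 678, 653, 1482 and 58 calls for the knockdown without IFN-γ, with it, averaged and for the difference between responses, against 162, 226, 798 and 1. The block gave 673, 675, 1720 and 2, DESeq2 gave 312 and 9 for the first and last, and only the groups compared gave 124 for the second. Without chromosome 14 the averaged count was 531. For IFN-γ averaged over both lines, alternatives other than leaving out a library gave 5479 to 7240 calls, against 5954. Those alternatives gave 3468 to 5166 calls for IFN-γ in pLKO cells and 3903 to 5634 in shDRG2 cells. Leaving out a library gave 27 to 167, 44 to 202 and 381 to 633 for the 3 knockdown counts, 2482 to 3749 for IFN-γ in pLKO cells (3796 with all) and 2720 to 4297 in shDRG2 cells (4233 with all).

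With 2 libraries a group the median standard error for these genes was 0.0835 log2 units for the knockdown without IFN-γ, so a gene not called is not shown to be level.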
